A study of Mus musculus with 36 samples.

Results

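Chromatin accessibility was compared between neurons that lack Actl6b (KO) and wild-type (WT) neurons at rest, over all regions of the genome that the deposited ATAC-seq tables list. The comparison holds every library whose title names ATAC-seq, 7 KO and 5 WT, which is 12 of the 36 libraries of the series. GEO's molecule and library source fields call these samples total RNA and transcriptomic, against their titles and their Tn5 protocol, and they were taken as ATAC-seq from the latter. The neurons were primary cortical neurons taken from mouse embryos at E16.5 (an embryonic day) and cultured for 7 days. The genotype labels are wild type and ACTL6B -/-, and cultures of both genotypes were silenced for 2 h, with no KCl. TTX, a sodium channel blocker, and APV, an NMDA receptor antagonist, were used for this. The series calls the cultures biological replicates, and the titles give each a code of 2 numbers (WT 3-4, 3-7, 4-2, 4-3 and 4-4; KO 1-1, 2-3, 3-2, 3-3, 3-5, 4-7 and 4-8). The labels do not say what either number marks, nor how the knockout allele was made. Each library was made from 55000 neurons.

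Actl6b encodes an actin-related subunit found in the neuronal form of the BAF complex, an ATP-driven machine that slides and evicts nucleosomes. As precursors leave the cell cycle and become neurons, this subunit takes the place of its relative Actl6a. In ATAC-seq the transposase Tn5 cuts DNA where nucleosomes leave it exposed, so a region with many reads is open and a region with few is closed in most cells. Reads also fall at a low rate on closed DNA, and the share of a library that falls in strong regions can differ from one preparation to the next.

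The tables give raw read counts in 76570 regions, and each library held 4679644 to 7262297 counts. Libraries were compared as CPM, a region's reads scaled to a common library total. The regions carry no gene name and their genome build (mm9) had no annotation or sequence here, so regions are named by position, and neither Actl6b itself nor the markers of neurons and other brain cells were analysed here. Counts on the 3 regions of chromosome Y were found in 3 WT and 4 KO libraries, at 25.2 to 45.2 CPM, and were 0 in the other 5. Chromosome X took 1.18 to 1.29% of counts in libraries with chromosome Y counts and 1.30 to 1.42% in those without. Both genotypes held libraries of both kinds.

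The 12 libraries differed in how much of their signal lay in strong regions, and this difference was larger within a genotype than between the genotypes. Strong regions are here the 5% of autosomal regions (3766) with the highest mean CPM over all 12 libraries. They took 27.4% of autosomal counts in WT 4-3, 28.75% in WT 4-2, 29.1% in WT 3-4, 29.8% in WT 4-4 and 29.9% in WT 3-7. In KO the share was 26.5% in 3-3, 27.3% in 3-2, 27.7% in 4-7, 27.9% in 4-8, 28.7% in 1-1, 29.7% in 3-5 and 31.4% in 2-3. The KO libraries span a wider range than the WT libraries and include both the lowest and the highest value. The mean was 29.0% ± 1.00 in WT (SD, n = 5) and 28.5% ± 1.63 in KO (SD, n = 7), a KO minus WT difference of -0.540 percentage points. The exact permutation test, two-sided and with 792 possible splits, gave p = 0.537, and the 95% interval from inverting this test ran from -2.36 to 1.38 points. The difference was -1.02 points without KO 2-3 and -0.913 without WT 4-3, and -0.220 without KO 3-3, -0.297 without WT 3-7, -0.322 without WT 4-4 and -0.349 without KO 3-2, with exact permutation p-values of 0.149 to 0.799 over the 12 libraries left out in turn. Among codes that start with 3 the difference was -1.66 points (3 KO and 2 WT), and among those that start with 4 it was -0.840 points (2 KO and 3 WT).

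The weakest regions differed in the same way. The 25% of autosomal regions with the lowest mean took 3.72 to 4.69% of counts in WT and 3.82 to 6.02% in KO, where 3-3, the lowest library for strong regions, was the highest here. The means were 4.15% ± 0.348 (SD, n = 5) and 4.79% ± 0.786 (SD, n = 7), and the exact permutation p was 0.121. Within the codes that start with 3 and with 4 KO was higher by 0.911 and 0.815 points. The genotypes overlapped in this measure as well, with 5 of the 7 KO libraries at 4.59% or more against 1 of the 5 WT libraries. The shares in regions of 2 kb or more (WT 35.3%, KO 34.9%), in regions with a neighbour within 1 kb (14.9% and 14.8%) and in regions over 100 kb from any other (0.917% and 0.914%) differed by less than the spread between libraries. Their exact permutation p-values were 0.631, 0.520 and 0.931, and the lowest p adjusted over the 5 shares was 0.606.

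**Figure D1:**
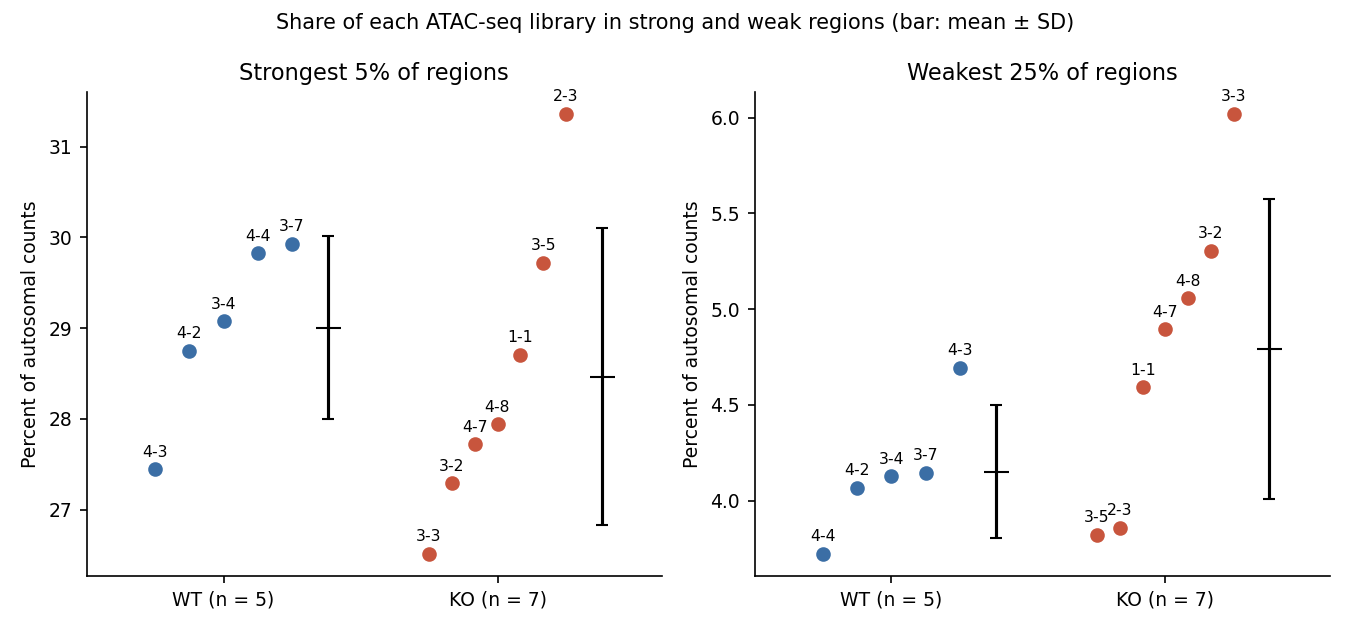
Percent of autosomal counts in the strongest 5% (left) and the weakest 25% (right) of regions, 1 point for each library with its culture code; the vertical axes do not start at 0, and bars give mean ± SD. WT 4-3 has the lowest strong-region share of its genotype (27.4%) and KO 2-3 the highest (31.4%).

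The strong-region share was a property of the whole library. Computed from the odd-numbered autosomes alone it ran with the share computed from the even-numbered ones (Pearson r = 0.996, Spearman rho = 1, n = 12; permutation p = 1e-05 for each, the smallest that the resampling can give). Without KO 2-3 and KO 3-3, the libraries farthest from the median, r was 0.991. No relation of the share with depth was found: against the log10 total count r was -0.126 and rho -0.196 (permutation p = 0.696 and 0.543), and r was 0.1405 without WT 3-7 and WT 3-4. These are 2 of 5 relations computed, and adjusted p-values for r were 1.67e-05 and 0.696.

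The first principal component of log2 CPM, with 23.2% of the variance, ran with the same share (r = -0.842, rho = -0.902, n = 12; permutation p = 6e-04 and 2e-04, adjusted 7.5e-04 for r). Without KO 2-3 and KO 3-3, r was -0.895. Both measures come from the same counts. KO libraries lay higher on this component (36.02 ± 56.2, SD, n = 7) than WT libraries (-50.4 ± 49.2, SD, n = 5; two-sided exact permutation p = 0.0265), and the genotypes overlapped. With the share taken out by a common slope, the 7 KO libraries lay at 13.5 to 51.7 and the 5 WT libraries at -62.8 to -13.7. At equal share the genotypes thus no longer overlapped on this component, which is given as a description without a test.

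The regions behind this axis were found with a model that holds genotype and the share together. Regions on even-numbered autosomes were tested against the share of the odd-numbered autosomes, so that no tested region enters the share. Of 33773 regions 1202 rose (3.56%) and 1199 fell (3.55%) with the share (edgeR quasi-likelihood test, Benjamini-Hochberg adjusted p under 0.05), 7.11% of those tested. Regions that rose were strong and wide, with medians of 48.4 CPM and 1872.5 bp. Regions that fell had medians of 6.02 CPM and 719 bp. These were close to the medians of regions that did not pass, 6.87 CPM and 719 bp. The median change for 1 percentage point of share was 0.14 on the log2 scale among risers and -0.41 among fallers. Over the range of the libraries, 4.67 points, this comes to 0.65 and -1.90.

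The direction of the change went with the level of the region. When the tested regions were put in 10 equal classes by mean CPM, 816 regions of the highest class rose with the share (24.2%) and 25 fell. In the lowest class 0 rose and 102 fell. The percent that fell did not peak there: it was 3.02 in class 1, 4.97 in class 2, 3.85 in class 8, 2.04 in class 9 and 0.740 in class 10. By width, of 2958 regions over 2 kb 537 rose (18.2%) and 22 fell (0.744%). Of 7845 regions of up to 500 bp 38 rose (0.484%) and 231 fell (2.94%). Fallers were most frequent, at 4.79%, among regions over 500 to 1000 bp. Width and level ran together, with medians of 43.2 CPM over 2 kb and 3.45 CPM at up to 500 bp. Of the 1651 strong regions tested 604 rose with the share (36.6%) and 4 fell. This restates the correlation between the shares of odd-numbered and even-numbered autosomes and is no separate finding.

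Single regions show the size of this shift. The region at chr2:160933495-160936026 (2532 bp) held 67.2, 80.2, 87.1, 87.7 and 87.9 CPM in WT and 56.4 to 112 CPM in KO, with KO 3-3 lowest and KO 2-3 highest. Its slope was 0.20 log2 units for each point of share (edgeR adjusted p = 1.91e-05, SE 0.03). The region at chr16:38087257-38091082 (3826 bp) held 248 to 264 CPM in WT and 185 to 321 CPM in KO, with the same 2 KO libraries at its ends. Among regions that fell, chr14:81056885-81057767 (883 bp) held 5.38, 7.37, 14.9, 15.2 and 32.7 CPM in WT, the last in WT 4-3. In KO it held 9.04 CPM in 2-3, a median of 21.98 CPM (KO 4-7) and 38.6 CPM in 3-3. Its slope was -0.54 (edgeR adjusted p = 8.15e-07, SE 0.07), and the genotypes overlap over most of that range. Each of these 3 regions has one of the 3 smallest adjusted p-values of its direction.

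The share term leaned on the libraries at its ends. Without KO 2-3 the count fell from 2401 to 896 (243 up, 653 down), without KO 3-3 to 1354 and without WT 4-3 to 1435. In KO libraries alone 1079 regions passed (3.86%), 516 up (1.84%) and 563 down (2.01%). In WT libraries alone 70 did (0.264%), 14 up (0.0528%) and 56 down (0.211%). The split between risers and fallers depended on the scaling: with total counts in place of TMM factors it was 473 to 1477, and with loess offsets, which remove any trend with level from each library, 282 to 714.

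**Figure D2:**
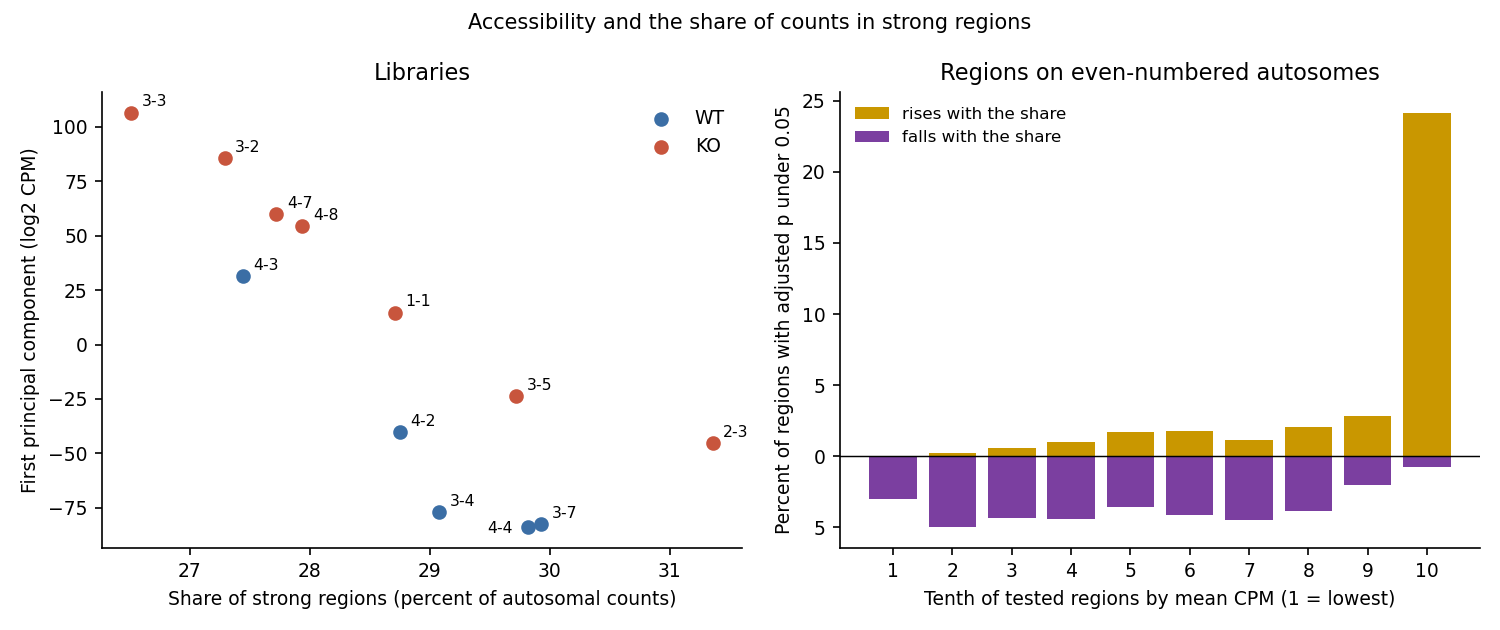
Left, first principal component of log2 CPM against the percent of autosomal counts in strong regions, 1 point for each of the 12 libraries. Right, percent of regions on even-numbered autosomes that rose (up) or fell (down) with the share, in 10 equal classes by mean CPM. The highest class stands out with 24.2% of its regions rising.

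A small part of the regions differed between the genotypes, more of them higher than lower in KO. Of 73346 regions tested, 594 differed between KO and WT (edgeR quasi-likelihood test, adjusted p under 0.05), which is 0.810%. Of these 385 were higher in KO (0.525%) and 209 lower (0.285%). The number called differed between models: 1466 (961 higher, 505 lower) when the leading number of each code was added as a covariate, and 1250 (819 higher, 431 lower) with DESeq2. KO 1-1 and KO 2-3 are the only libraries whose codes start with 1 and 2. In the covariate fit they thus drop out of the genotype contrast, and without KO 2-3 alone the count was 1395. With limma voom and quality weights the split was closer, 533 higher and 468 lower. Higher regions had a median log2 fold change of 1.15, from 0.42 to 2.74, and lower regions of -0.77, from -1.77 to -0.40. At least a 2-fold change was seen in 246 of the higher and 49 of the lower regions (0.335% and 0.0668% of those tested). Higher regions were weaker and narrower, with medians of 8.77 CPM and 818 bp, than lower regions, with 14.7 CPM and 1060 bp.

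Presence against absence was not seen. A mean of at least 1 CPM in one genotype with 0 counts in every library of the other occurred in 0 regions in either direction. The libraries of the genotypes did not overlap in 971 regions (1.32%), of which 472 were higher in KO (0.644%) and 499 lower (0.680%). Of the 594 called regions, 289 had no overlap (0.394% of those tested). In the rest at least 1 library lay within the range of the other genotype.

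The called regions with the smallest adjusted p and those with the largest fold change and no overlap between genotypes, 28 in all, were followed through all libraries. They are numbered by direction as gain 1 to 14 and loss 1 to 14, in order of adjusted p, and positions are on mm9. None of them is tied to a gene here.

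Gain 1, at chrX:103381661-103383426, held 33.9, 35.8, 37.7, 38.4 and 47.5 CPM in WT. In KO it ran from 84.7 to 130 CPM with a median of 98.4. Every KO library was thus above every WT library by a wide gap. The log2 fold change was 1.38 (edgeR adjusted p = 3.99e-12, SE 0.11), the smallest p of any region. It lies on chromosome X, which differed in its share of counts between libraries with and without chromosome Y counts. With chromosome Y counts in the model its log2 fold change was 1.37. The KO libraries with chromosome Y counts (3-2, 3-5, 4-7 and 4-8) held 84.7 to 102 CPM. The WT libraries without such counts held 33.9 (3-7) and 37.7 CPM (4-4). The part of chromosome X dosage in this difference was not tested beyond these values.

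Gain 2, at chr15:102750956-102752643, held 7.62, 8.22, 8.78, 9.31 and 10.3 CPM in WT and 16.5 to 31.0 CPM in KO, with a median of 24.8. The WT libraries lay close together (8.84 ± 1.02, SD, n = 5) and the KO libraries spread over a wider range (23.7 ± 4.81, SD, n = 7). Its log2 fold change was 1.43 (edgeR adjusted p = 3.33e-06, SE 0.18).

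Gain 3, at chr5:86615944-86616711, was weak in WT, at 1.31, 2.52, 2.68, 3.54 and 5.79 CPM, and held 9.50 to 18.9 CPM in KO, with a median of 12.6. It had the largest change of the first 5, 2.02 (edgeR adjusted p = 2.35e-05, SE 0.27). Gain 4 lies on the same chromosome at chr5:125289873-125291030. It held 7.66, 8.54, 9.49, 11.4 and 15.1 CPM in WT and 19.2 to 31.8 CPM in KO (median 24.2), a log2 fold change of 1.24 (edgeR adjusted p = 5.56e-05, SE 0.18). Gain 5, at chr11:106227179-106228220, held 4.60, 6.26, 6.60, 9.91 and 10.4 CPM in WT and 14.6 to 21.9 CPM in KO (median 20.3). The genotypes did not overlap in any of these 5 regions.

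Loss 1, at chr17:21625562-21626631, held 34.9, 36.3, 37.0, 40.9 and 43.5 CPM in WT and 15.7 to 29.1 CPM in KO, with a median of 21.8. Its log2 fold change was -0.82 (edgeR adjusted p = 5.75e-04, SE 0.13). The means were 38.5 ± 3.56 CPM in WT (SD, n = 5) and 21.9 ± 3.97 in KO (SD, n = 7). On the log2 scale the change was smaller than in any of gains 1 to 5.

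Loss 2, at chr11:36802464-36803201, held 10.7, 11.9, 13.6, 13.6 and 19.6 CPM in WT and 3.12 to 6.98 CPM in KO, with a median of 6.02. It had the largest change of the first 5 losses, -1.35 (edgeR adjusted p = 0.00126, SE 0.23). Loss 3, at chr15:25839251-25840472, held 17.1, 20.9, 24.5, 28.2 and 28.2 CPM in WT. Its KO libraries held 8.49 to 16.4 CPM with a median of 10.9, so that the highest KO library came within 1 CPM of the lowest WT library.

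Loss 4, at chr14:123538001-123539443, went from 26.5 ± 2.54 CPM in WT (SD, n = 5) to 14.4 ± 3.75 in KO (SD, n = 7). Loss 5, at chr12:7966152-7967035, went from 15.5 ± 4.83 to 6.80 ± 1.56 CPM (SD, same n), with WT 3-4 and WT 3-7 near 20 CPM and the other 3 WT libraries at 10.7 to 13.7. Both passed with an edgeR adjusted p of 0.00405 and 0.00424.

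**Figure D3:**
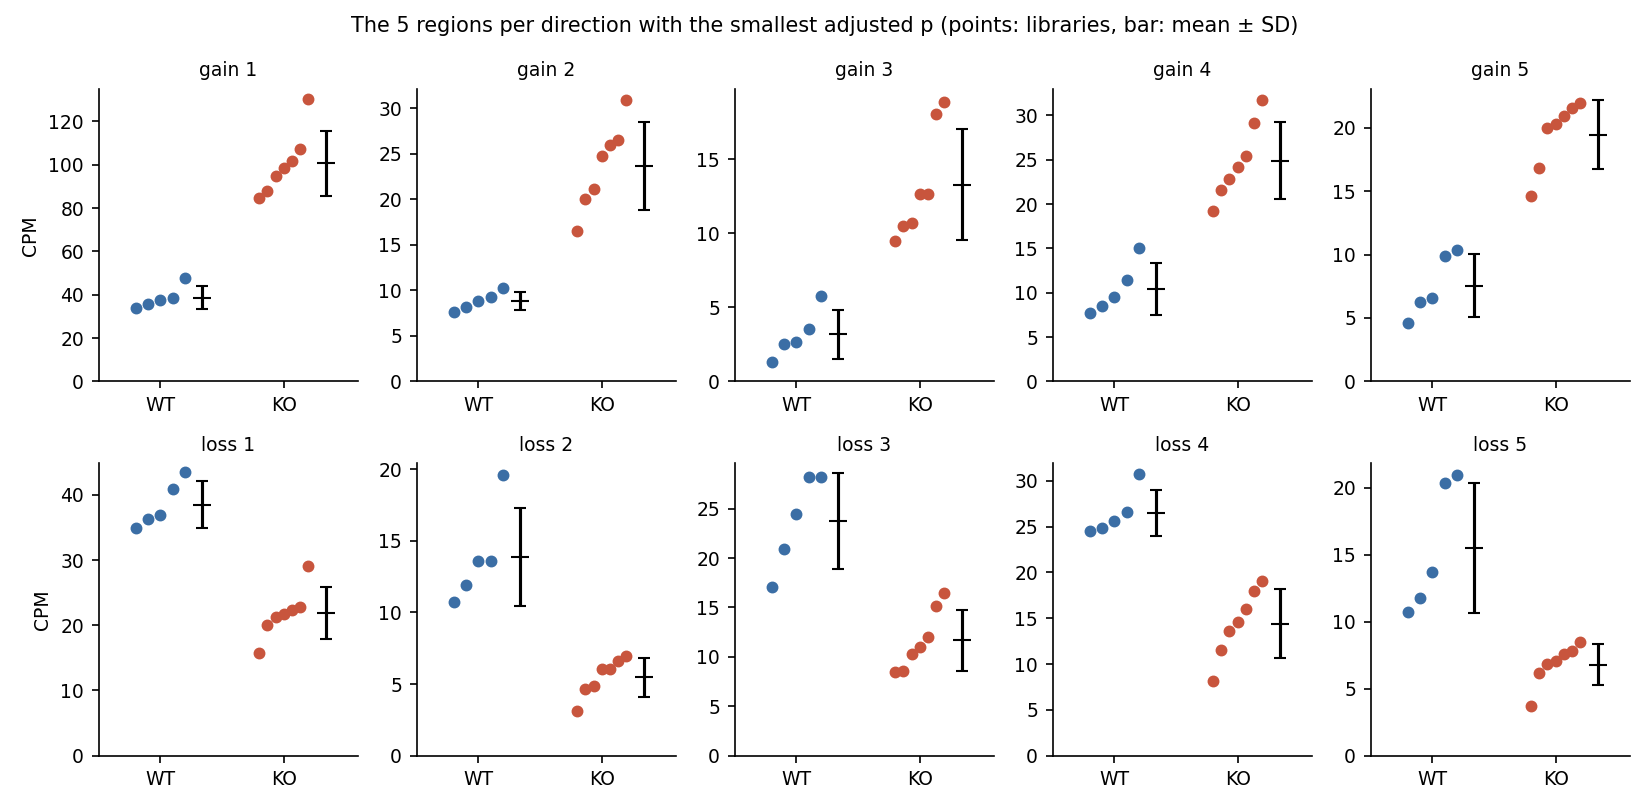
CPM of each WT (blue) and KO (red) library, in ascending order within a genotype, in gains 1 to 5 and losses 1 to 5, with mean ± SD as bars; each panel has its own axis from 0. In all 10 panels the genotypes do not overlap, and gain 1 reaches the highest level, 130 CPM.

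The regions with the largest folds were weak ones. The 10 largest gains without overlap lay between 1.91 and 9.06 CPM over all libraries and between 368 and 768 bp, with log2 fold changes of 1.85 to 2.37. The 10 largest losses lay between 2.76 and 8.97 CPM with log2 fold changes of -1.77 to -1.24. Gain 8, at chr10:7938263-7938826, is an example: it held 0.283, 0.388, 1.09, 1.43 and 2.74 CPM in WT and 3.24 to 8.62 CPM in KO, a log2 fold change of 2.26 (edgeR adjusted p = 0.00318, SE 0.41). Loss 9, at chr7:74830467-74831109, had the largest fall, with 3.40, 3.66, 4.16, 5.10 and 7.18 CPM in WT and 0.635 to 1.89 CPM in KO (median 1.41). Its log2 fold change was -1.77 (edgeR adjusted p = 0.0231, SE 0.41).

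How many regions were called depended strongly on which libraries were in the fit. Leaving out 1 library at a time gave 95 (without WT 4-4) to 1582 (without WT 4-3). Counts fell to 140 without WT 3-4, 221 without WT 3-7, 280 without WT 4-2, 212 without KO 3-2, 207 without KO 3-3, 241 without KO 4-7 and 353 without KO 4-8. They grew to 1395 without KO 2-3 and 786 without KO 3-5, and 621 were called without KO 1-1. WT 4-3 and KO 2-3, whose removal raised the count most, are the WT library with the lowest and the KO library with the highest strong-region share. Where the count fell, most of the regions called were among the 594, such as 94 of 95 without WT 4-4 and 253 of 280 without WT 4-2.

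**Figure D4:**
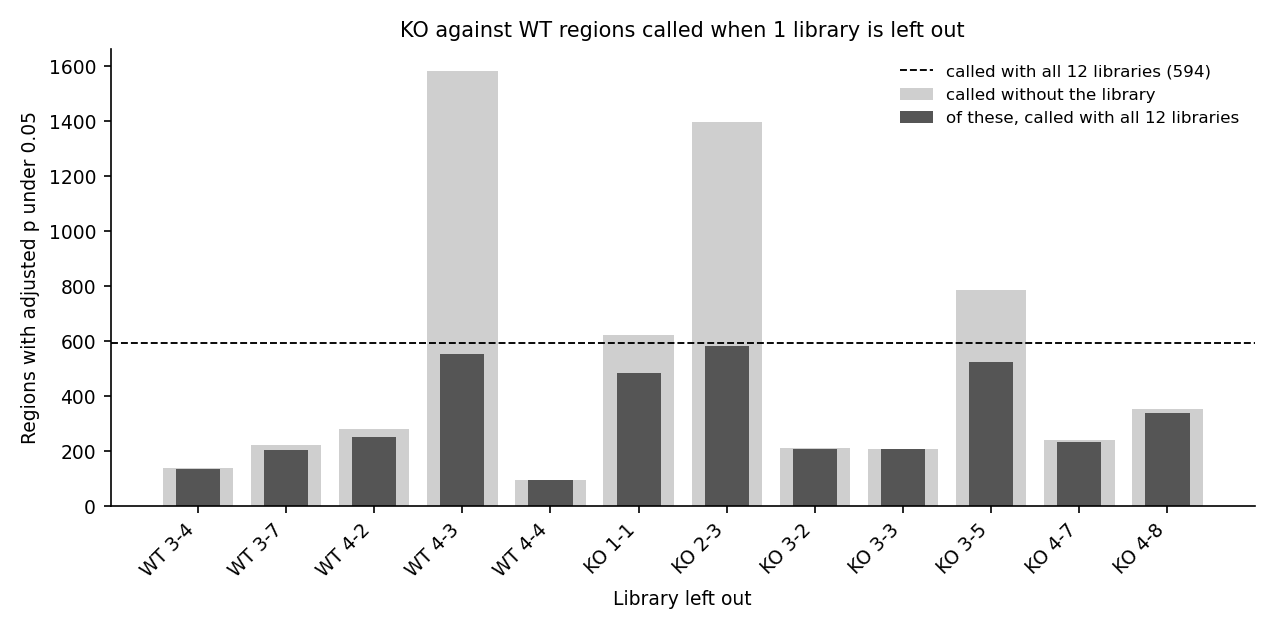
Regions called in KO against WT when the library on the horizontal axis is left out (light bars), and how many of them are among the 594 called with all 12 libraries (dark bars, dashed line). Counts run from 95 without WT 4-4 to 1582 without WT 4-3.

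A smaller set did not depend on any 1 library. With all libraries and in each of the 12 fits that leave out 1, 67 regions were called (0.0913%), 51 of them higher in KO (0.0695%) and 16 lower (0.0218%). The 51 gains lay on 19 chromosomes with a median log2 fold change of 1.29 (0.61 to 2.26), and 35 had no overlap between genotypes. All 16 losses had no overlap, with a median of -0.92 (-1.35 to -0.53), and lay on 13 chromosomes. Of all tested regions 0.644% had no overlap with KO higher and 0.680% with KO lower. The set was chosen on these same libraries, which favours regions without overlap, so its lack of overlap is no added support. Gains 1 to 9 and losses 1 to 5 belong to this set. Gain 10, at chr2:10934793-10935362, does not: its call ended without WT 3-7, WT 4-4 or KO 3-3.

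With WT 4-3 and KO 2-3 both left out, 3587 regions were called (4.86%), 2441 higher in KO (3.31%) and 1146 lower (1.55%). These held 585 of the 594. When the strong-region share was added to that model the count was 77 (0.104%), with 58 higher (0.0786%) and 19 lower (0.0257%), and 29 of the 67 stable regions among them. In the 10 libraries that remain, the share was 28.75 to 29.9% in WT and 26.5 to 29.7% in KO, so genotype and share cannot be fully told apart. With all 12 libraries the share term had the opposite effect on the count, 828 called (1.13%; 510 higher, 0.695%, and 318 lower, 0.434%). Those 828 held 550 of the 594 and all 67 stable regions. Without KO 2-3 alone the equal-share count was 290.

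Level ordered the differences between genotypes as it ordered those between libraries. Over the 10 classes by mean CPM, the median log2 fold change of KO over WT was 0.30 in the lowest class and 0.12 in the next, and -0.05 in each of the 2 highest. In the lowest class 71.2% of regions had a positive fold change and in the highest 35.3%. With the share in the model the lowest and highest classes were at 0.17 and -0.02. Without WT 4-3 and KO 2-3 they were at 0.44 and -0.11. With loess offsets every class lies near 0 by construction (-0.02 and -0.0049), since these offsets take out trends with level. The share is itself computed from strong regions, so its term draws the highest class towards 0 in part by construction. The part of the share in this trend was not tested beyond these values.

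Calls followed level as well. The lowest class held 8 higher and 1 lower region, class 5 held 52 and 15, and class 7 held 69 and 31. In class 9 there were 41 higher and 54 lower regions, and in class 10 there were 11 and 33. In that highest class the balance depended on the model: 59 higher and 57 lower with the share, 65 and 39 with loess offsets, and 38 and 333 without WT 4-3 and KO 2-3. The direction of change among the strongest regions thus differed between these settings. The share is computed from strong regions and loess offsets remove trends with level, so both act on this balance by construction. The median standard error of a log2 fold change fell from 0.52 in the lowest class, at a median of 1.97 CPM, to 0.115 in the highest, at 48.9 CPM, so small changes could be called only in strong regions.

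**Figure D5:**
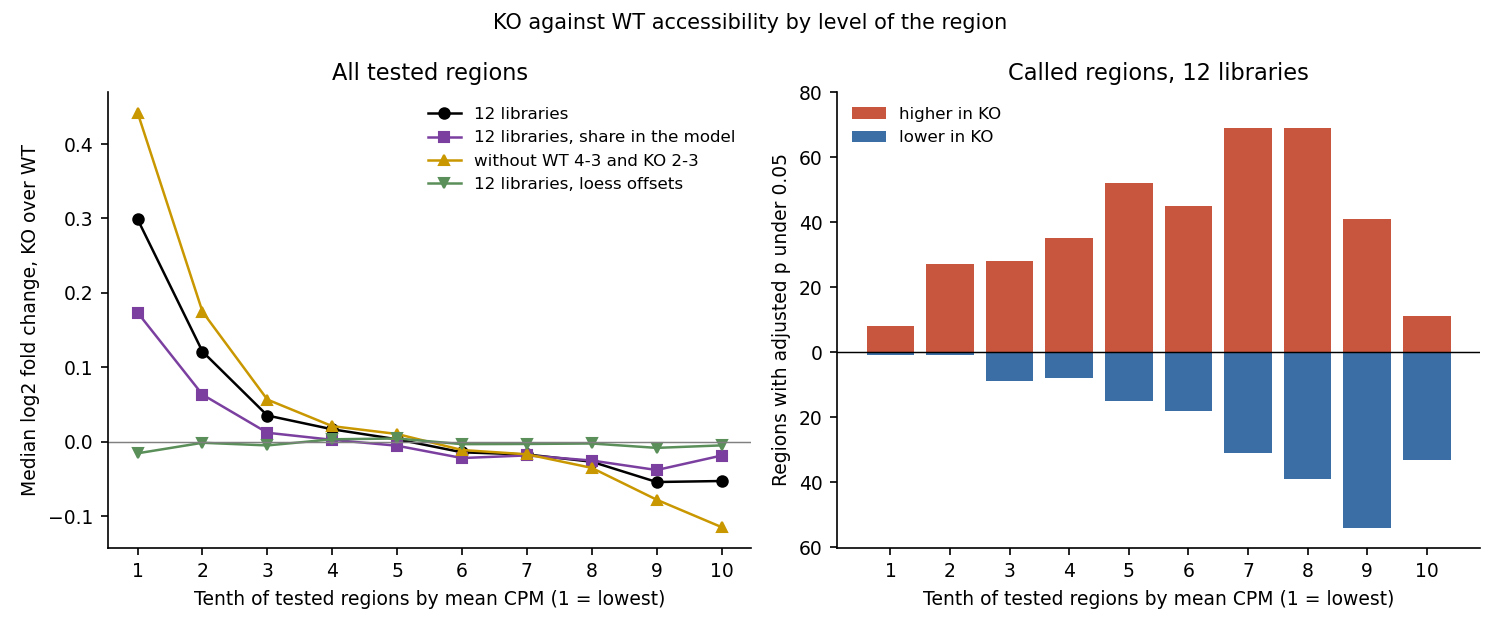
Left, median log2 fold change of KO over WT in 10 equal classes of tested regions by mean CPM, in 4 fits. Right, regions called higher (up) and lower (down) in KO with all 12 libraries. The lowest class is at 0.30 with 12 libraries and near 0 with loess offsets, which take out such trends by construction.

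Width gave a like picture. Of 16791 regions of up to 500 bp 46 were higher and 15 lower, of 32496 over that and up to 1000 bp 216 and 82, and of 17272 over 1000 and up to 2000 bp 107 and 80. Of 6787 regions over 2 kb 16 were higher and 32 lower. With the share in the model the widest class had 64 higher and 51 lower. This turn in the balance comes from a model whose share is itself computed from strong regions.

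Called regions occurred at every spacing. Regions with a neighbour within 1 kb had 49 higher and 22 lower of 9897, those at 1 to 10 kb 173 and 87 of 34028, and those at 10 to 100 kb 159 and 96 of 28449. Regions over 100 kb from any other had 4 higher and 4 lower of 972. Of called regions of 1 direction, 0 runs of 3 or more had starts within 100 kb of the next. For pairs the number was 12, which is 24 regions in all. How many pairs an even spread of the calls would give was not computed.

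The changes were spread over the genome. The percent of tested regions called ran from 0.541 on chromosome X to 1.02 on chromosome 10, against 0.810 overall. More regions were higher than lower on 17 of 20 chromosomes, with equal numbers on 2 and the opposite on chromosome 16 (8 and 10). Of 275 windows of 10 Mb, 60 held no called region, 110 held 1 or 2, 89 held 3 to 5 and 16 held 6 or more, up to 13.

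Calls on some chromosomes were mostly in 1 direction. Chromosome 19 had 17 higher and 1 lower region of 1811 tested (0.994%), and chromosome 5 had 41 higher and 5 lower of 4778 (0.963%). A stretch of it from 110 to 130 Mb, singled out after its values were seen, held 22 of those higher regions and 2 lower among 996 tested, 2.41%. The rest of the chromosome held 19 higher and 3 lower among 3782, 0.582%. Other windows of 10 Mb had a like percent from fewer calls: 2.77% at 40 to 50 Mb of chromosome 10 and at 30 to 40 Mb of chromosome 13 (7 calls each), 2.75% at 120 to 130 Mb of chromosome 14 (6 calls), and 3.125% at 0 to 10 Mb of chromosome 14 and 2.94% at 100 to 110 Mb of chromosome X (2 calls each). At equal share the chromosome 5 values were 2.51% and 0.952%, and with DESeq2 3.01% and 1.43%. Leaving out 1 library at a time gave 0.599 to 3.42% in the stretch and 0.131 to 1.96% outside it, and the stretch was higher in each of the 12 fits. Of the 67 stable regions 9 lie on chromosome 5, all higher in KO, and 6 of these are in the stretch, gain 4 and gain 9 (chr5:113729465-113729921) among them. By adjusted p the first of the others is chr5:114359996-114360969, with a log2 fold change of 1.27 (edgeR adjusted p = 1.77e-04, SE 0.19). Since the stretch was chosen for its count, no test is given. Where Actl6b lies relative to the stretch was not examined, as the mm9 build had no annotation here. The part of its position in these calls was thus not tested.

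Libraries of a genotype were about as variable in KO as in WT. The median SD of log2 CPM over tested regions was 0.378 in WT (n = 5) and 0.390 in KO (n = 7). With 1 library left out it ran from 0.351 to 0.376 in WT and from 0.367 to 0.391 in KO.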

How the data were processed

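Each of the 12 ATAC-seq tables, as deposited by the authors, gives a chromosome, start, end and raw read count for each region. The regions are the same in all. The submitters' processing notes name Trim Galore, Bowtie2, MACS2, bedtools, kallisto 0.44.0 and DESeq2 and the builds mm9 and mm10, with no role for each; chromosome names of the kind chr13_random fit mm9. Whether regions were called on pooled samples, and any correction for Tn5 cut position or removal of duplicate reads, are not given in the sources used here. Starts were read as counted from 0 and are printed 1-based.

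Counts were tested in R 4.3.3 with edgeR 4.0.16 (filterByExpr by genotype, TMM factors, robust quasi-likelihood F test, Benjamini-Hochberg adjustment over all tested regions). The share term is the percent of autosomal counts in the strongest 5% of autosomal regions, added to genotype as a continuous term. For the test of the share itself it came from odd-numbered autosomes and the regions from even-numbered ones. Library shares were compared with two-sided exact permutation tests over the 792 splits, and correlations with 100000 permutations. Named regions are, per direction, the 10 called regions with the largest fold change among those with no overlap between genotypes and a mean of at least 1 CPM, and the 5 with the smallest adjusted p. Alternatives were DESeq2 1.42.0, limma 3.58.1 voom with quality weights, other scalings and filters, covariates, and each library left out.

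The 66 pairs of libraries had Spearman correlations of 0.817 to 0.920 over regions, and each pair differed by more than counting noise, so no pair looked like repeats of 1 library. That the libraries are separate cultures rests on the series' own text. The titles of the groups share no culture code. Reads carry no molecular identifiers, and p-values measure the spread between cultures that the series calls biological replicates. The members and lists were chosen with earlier results of these data known. Marker genes of neurons and other brain cells had been listed, but could not be placed on the regions without an mm9 annotation. The 24 RNA-seq libraries were not used here.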

Additional observations from a re-analysis of the deposited data

Results flagged for a closer look

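CPM values of the named regions and the library shares were searched for a library far from the others of its genotype (Dixon's criterion at 95%). Of 66 groups tested 3 had one, where chance flags about 1 in 20. Gain 7, at chr1:45549041-45549554, held 13.4 CPM in KO 3-3 with the nearest KO library at 7.94. Gain 10, at chr2:10934793-10935362, held 11.5 CPM in KO 3-3 with the nearest at 4.96, and its edgeR adjusted p was 0.0919 without that library. Loss 7, at chr18:13083440-13084051, held 16.4 CPM in WT 3-7 with the nearest WT library at 8.35, and its edgeR adjusted p was 0.138 without it. KO 3-3 is the library with the lowest strong-region share and the highest share in weak regions. In the test of the share, gain 10 fell with it (slope -0.50 log2 units for each point, edgeR adjusted p = 0.0341). Its log2 fold change was 2.37, and 2.01 with the share in the model. Loss 7 did not pass that test (edgeR adjusted p = 0.606), and gain 7, on an odd-numbered autosome, was not in it. The part of KO 3-3 in these values was not tested.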

How the results depend on the processing

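No paired analysis was possible because no culture code occurs in both genotypes. The KO against WT count of 594 moved to 1466 with the first number of the code as a covariate, 1250 with DESeq2, 1001 with voom weights (533 higher, 468 lower, so 53.2% higher against 64.8%), 84 at an adjusted p under 0.01 and 3587 without WT 4-3 and KO 2-3. Leaving out 1 library gave 95 to 1582. In the covariate fit KO 1-1 and KO 2-3 drop out of the genotype contrast, since no other code starts with 1 or 2. Of the 594, DESeq2 kept 592, voom 520, the covariate 527 and loess offsets 533; all 67 stable regions were kept by each but loess offsets (66). The other 12 alternatives (scalings, loess offsets, filters, autosomes, chromosome Y counts, thinning, 2 left-out libraries) stayed within 1.5 times. The equal-share count of 828 was 77 without WT 4-3 and KO 2-3, an alternative chosen after seeing the data, and 290 to 919 without 1 library. The share-term count of 2401 was 996 with loess offsets, 70 in WT alone and 1079 in KO alone (both chosen after seeing the data, with fewer samples), and 896 to 2413 without 1 library. The strong-region share difference of -0.540 points was -1.02 to -0.220 without 1 library, negative in all 15 alternatives, and passed the exact permutation test in none. The weakest-25% difference was 0.495 to 0.791 points without 1 library, and 0.791 (exact permutation p = 0.0455) without KO 3-5. The difference in regions with a neighbour within 1 kb was -0.166 to 0.00194, the last without WT 3-7. For regions over 100 kb apart it was -0.0120 to 0.0112 without 1 library, with the sign turned without WT 4-3 (0.00712), KO 2-3 (0.00821), KO 3-2 (0.00315) and KO 3-5 (0.0112), and 0.00953 at over 50 kb; none of these spacing differences passed the exact permutation test. Of 711 results of named regions under alternatives 84 lost their call and 0 turned sign. The named regions were chosen on these same data and had no overlap between genotypes. Their sign could thus hardly turn, and its stability is no support. The cause of the shifts listed here was not tested.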
